A study of Mus musculus with 3 samples.

Results

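The genes described here are 10 transcription factors and cofactors of male meiosis and spermiogenesis: Mybl1, Tcfl5, Rfx2, Sox30, Crem, Fhl5, Tbpl1, Taf7l, Gtf2a1l and Sox5. They were taken by symbol, and all 10 were found among the 32285 genes of each deposited table. They were followed from spermatogonia to elongating spermatids in single cells from the testes of adult mice. The controls are 1 library each from 2 wildtype mice (replicates 1 and 2), and cells of 2 conditional Tex10 knockout mice were pooled into 1 further library. The strain label is C57BL/6N throughout, and the testes were dissociated with collagenase IV before 10x Genomics 3′ libraries (version 3.1) were made. Neither a Cre driver nor the deleted exons are named in the labels, and pooling leaves 1 knockout library, so knockout values have no replicate check and no p-value is given. Where 3 values stand in a row below, the first is wildtype replicate 1, the next wildtype replicate 2, and the last the knockout.

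Male germ cells pass from mitotic spermatogonia through the long prophase of meiosis, in which pachytene spermatocytes make large amounts of RNA, to haploid round spermatids that build an acrosome and a flagellum and then elongate. MYBL1 (A-MYB) is a DNA-binding activator known for switching on pachytene genes, among them piRNA precursors and piRNA pathway genes. TCFL5 is a basic helix-loop-helix factor, RFX2 an activator of cilium and flagellum genes, and SOX30 and SOX5 are HMG-box factors. CREM is a cyclic-AMP-responsive factor needed for spermatid gene expression, and FHL5 (also called ACT) is the LIM-domain coactivator that binds it. TBPL1, TAF7L and GTF2A1L are germ-cell forms of parts of the general RNA polymerase II machinery, related to TBP, TAF7 and the TFIIA large subunit.

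Promoter windows of 250 bases before to 50 bases after a transcript start (RefSeq, GRCm38.p6) were found for 8 of the 10 genes; Mybl1 and Crem had none in the table. The 2 factors that came on together in spermatocytes, Tcfl5 and Rfx2, and the 2 that came on in spermatids, Sox5 and Fhl5, are shown because they differ in base composition. The Sox5 window lies inside the span of the gene given below, at an internal start. Only bases before the start of the transcript are printed, 5′ to 3′ on the gene's own strand, which is the minus strand for all 4. The positions are chr2:180642709-180642941 for Tcfl5, chr17:56831014-56831258 for Rfx2, chr6:143947107-143947356 for Sox5 and chr4:25242877-25243102 for Fhl5. Capitals mark the MYB core AACNG in Tcfl5, AACNG and the RFX letters GTTGCC in Rfx2, GTTGCC and the E-box variant CACGCG in Sox5, and the SOX letters AACAAT in Fhl5, each on either strand.
Tcfl5: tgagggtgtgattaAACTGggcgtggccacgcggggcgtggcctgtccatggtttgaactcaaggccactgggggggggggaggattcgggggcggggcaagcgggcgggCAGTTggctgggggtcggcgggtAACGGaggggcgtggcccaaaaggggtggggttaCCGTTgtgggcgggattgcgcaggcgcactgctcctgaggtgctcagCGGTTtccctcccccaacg
Rfx2: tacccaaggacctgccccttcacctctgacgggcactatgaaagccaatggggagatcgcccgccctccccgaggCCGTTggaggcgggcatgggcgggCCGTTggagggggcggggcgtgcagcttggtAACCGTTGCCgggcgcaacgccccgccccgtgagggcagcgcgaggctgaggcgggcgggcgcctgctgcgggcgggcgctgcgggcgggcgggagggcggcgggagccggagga
Sox5: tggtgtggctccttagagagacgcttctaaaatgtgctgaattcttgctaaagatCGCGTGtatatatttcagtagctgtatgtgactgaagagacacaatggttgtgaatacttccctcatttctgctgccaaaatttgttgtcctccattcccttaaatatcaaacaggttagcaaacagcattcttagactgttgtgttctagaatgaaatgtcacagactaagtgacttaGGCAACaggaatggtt
Fhl5: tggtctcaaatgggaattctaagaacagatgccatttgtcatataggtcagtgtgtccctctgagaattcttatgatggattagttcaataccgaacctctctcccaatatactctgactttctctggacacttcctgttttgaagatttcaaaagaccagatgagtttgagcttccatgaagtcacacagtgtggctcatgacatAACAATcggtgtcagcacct

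The whole windows of Tcfl5 and Rfx2 held 73.0% and 75.7% G and C and 35 and 38 CpG dinucleotides. The Sox5 window held 39.7% and 3, and the Fhl5 window 42.7% and 2; a second annotated start of Fhl5 had 39.3% and 3. Over 32851 windows the median was 52.7% (quartiles 45.7% and 61.7%) with 7 CpGs, so the spermatocyte pair lay above the upper quartile and the spermatid pair below the lower. Of the remaining members, Sox30 (70.0%) and Tbpl1 (66.0%) were also above the upper quartile, whereas Gtf2a1l (56.7%) and Taf7l (47.0%) lay between the quartiles. In the Rfx2 window, 2 of the 4 MYB cores, at -120 and -118 from the start, shared letters with each other and with the RFX letters at -116. The core AACNG was present in all 8 members with a window, but 80.3% of all windows held it. GTTGCC was found in 3 members (12.5% of all windows), CACGCG in 3 (9.27%), AACAAT in 1 (10.7%), CACGTG in 1 (7.15%) and the short CRE TGACG in 1 (20.8%). The full CRE TGACGTCA was in 0 of the 8, against 1.79% of all windows. Both strands were searched, the short CRE is contained in the full CRE, and a match of letters is not a bound site.

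In GRCm38 coordinates of the GENCODE M21 annotation, all 10 are protein-coding genes. Mybl1 lies at chr1:9667415-9700209, minus strand, ENSMUSG00000025912, Tcfl5 at chr2:180621956-180642708, minus strand, ENSMUSG00000038932, and Rfx2 at chr17:56775897-56831013, minus strand, ENSMUSG00000024206. Sox30 lies at chr11:45980310-46017994, plus strand, ENSMUSG00000040489, Crem at chr18:3266048-3337748, minus strand, ENSMUSG00000063889, and Fhl5 at chr4:25199908-25242876, minus strand, ENSMUSG00000028259. Tbpl1 lies at chr10:22703879-22731938, minus strand, ENSMUSG00000071359, Gtf2a1l at chr17:88668660-88715152, plus strand, ENSMUSG00000024154, and Sox5 at chr6:143828425-144781977, minus strand, ENSMUSG00000041540. Taf7l is the X-linked member, at chrX:134460118-134476490, minus strand, ENSMUSG00000009596. In the last 500 bases of the gene, where 3′ reads fall, Tcfl5 overlaps Col9a3, Tbpl1 overlaps Slc2a12 and Fhl5 overlaps Gm11906, each on the opposite strand. The use of strand in counting is not given in the sources used here, so the values of these 3 genes are uncertain to that extent. Counts at the 3′ end also do not separate the activating and repressing forms of Crem or the long and short forms of Sox5.

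The libraries held 9967, 10153 and 12918 barcodes with 93418341, 96001773 and 147783171 UMIs, and 7483, 7670 and 11053 barcodes were kept. Of these, 54.7%, 40.0% and 63.8% fell into clusters of low UMI totals and were left out of the named classes. Named germ cells numbered 3222, 4422 and 3699, with median totals of 15509, 11794 and 20257 UMIs per cell. They formed 12 clusters that were put in order and are called stages here, each with at least 148 cells in each library. Stage 1 was spermatogonia-like, with Uchl1 among its leading genes. Stages 2 (led by Stra8) and 3 (Meiob, Sycp1, Sycp3) were early-spermatocyte-like, and stages 4 (Piwil1), 5 (Pou5f2) and 6 late-spermatocyte-like. Stage 6 was named by its markers, with Ccna1 at 422, 382 and 381 per 1000000 UMIs of the stage (CPM), but the acrosomal gene Acrv1 already stood there at 241, 296 and 264 CPM. Its median totals (26258, 20946 and 34814 UMIs) were nearer to stage 7 (28258, 22536 and 37798) than to stage 5 (87363, 67249 and 108786). X-linked genes gave 0.600, 0.627 and 0.625% of its UMIs, beside 0.0337, 0.0396 and 0.0321% in stage 5. The late-spermatocyte name of stage 6 is therefore uncertain. Stages 7 and 8 were round-spermatid-like and stages 9 to 12 elongating-spermatid-like. The barcodes shared by pairs of libraries numbered 27 to 30. Levels below are CPM over the summed cells of a stage or class, and 95% Poisson intervals cover counting error only.

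Tex10, the targeted gene, lies at chr4:48430858-48473459, on the same chromosome as Fhl5. It was not absent from the knockout library. Over named germ cells it stood at 47.2, 41.9 and 36.5 CPM, and in spermatogonia at 143, 124 and 131 CPM. In stage 4 it was 57.7, 58.4 and 49.7 CPM and in stage 6 53.6, 55.4 and 38.5 CPM. The knockout interval lay below both wildtype intervals in these 2 stages and over named germ cells. Of all genes tested, 8.85% lay below in this way in stage 4 and 6.93% in stage 6. A count at the 3′ end need not see the deletion of an exon.

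The 10 factors came on one after another in an order that was nearly the same in the 3 libraries. All named germ cells were ranked along the path through the stages and cut into 30 bins of equal cell number, and the onset was the first bin in which a gene reached 50% of its own highest bin in that library. Members and the other genes of the lists used here were left out of the features behind the clusters and the diffusion components. The classes, however, were named from markers that include the landmarks and other list genes such as Prm1. They were then placed in the known order of spermatogenesis. Taf7l was first (bins 1, 1 and 2), then Mybl1 (bin 4 in each library), Sox30 (bin 5) and the pair Rfx2 and Tcfl5 (bin 6). Gtf2a1l (bins 8, 9 and 9) and Tbpl1 (bin 9) followed, and then Crem (bin 11), Sox5 (bin 13) and Fhl5 (bin 15). Rfx2 and Tcfl5 were not separated by bins, and Gtf2a1l and Tbpl1 not beyond the range over libraries. The onset bins of the other neighbours did not overlap. Spearman's rho of the onset bins over the 10 members was 0.997 between the wildtype libraries and 0.997 between the knockout library and the wildtype mean. These libraries share the order of cells, so both values are descriptions. With barcodes of at least 2000 UMIs and at most 5% mitochondrial UMIs, 8 of the 10 onsets came 2 or more bins earlier, and Mybl1, Sox30, Rfx2 and Tcfl5 all had a median onset in bin 3, so their order was not resolved there.

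Genes of known stages give reference points for the onsets. These landmarks were also among the markers that named the classes, and the order of the classes was set in advance. Their order from class to class is therefore no separate check of the path. Stra8, which is needed for meiotic entry, came on in bin 3 and Meiob, of meiotic recombination, in bin 4, the bin of Mybl1. Piwil1, a piRNA-binding Argonaute of pachytene cells, came on in bin 7, after Sox30, Rfx2 and Tcfl5 and before Tbpl1. Aurka and Ccna1, of the meiotic divisions, came on in bin 10, between Tbpl1 and Crem. The acrosomal genes Acrv1 (bins 13, 12 and 13) and Spaca1 (bin 13) came on with Sox5, and Fhl5 came 3 bins before Tnp1, the transition protein gene (bin 18). Prm2, a protamine gene, came on in bin 23. Bins were cut along the path through the stages, so bins and stages run in the same order by construction. Bins 5 and 6 were mainly stage 3, bin 10 stage 5, bins 11 and 12 stage 6, bins 15 and 16 stage 8.

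**Figure D1:**
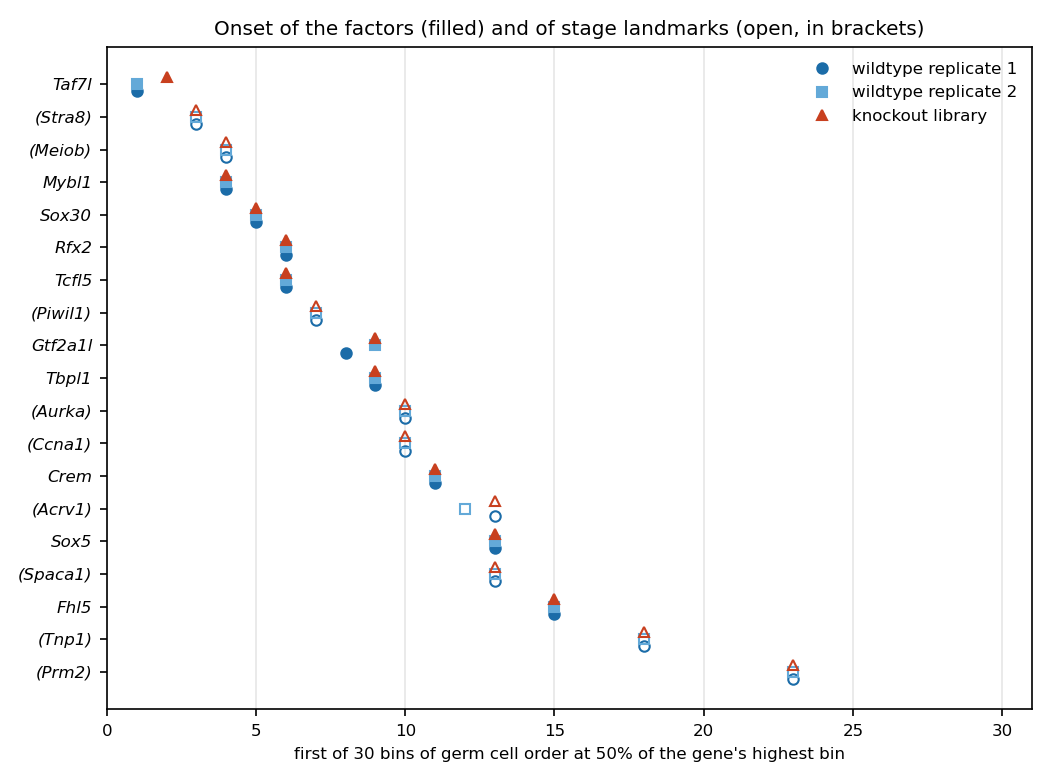
Onset bin (x axis, first of 30 bins of the germ cell order at 50% of the gene's highest bin) of the 10 factors (filled symbols) and of 9 landmark genes (open symbols, in brackets), with 1 symbol per library. The symbols of a factor fall in 1 bin except for Taf7l and Gtf2a1l, which span 2.

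Taf7l, the TAF7 relative, had the earliest onset and peak. It stood at 382, 409.9 and 369.6 CPM in stage 1 and 748, 689 and 790.1 CPM in stage 2, and the libraries of the 2 stages did not overlap. It was 117, 164 and 156 CPM in stage 3 and 1.27, 1.45 and 2.88 CPM in stage 4, from 21, 21 and 57 UMIs. In round spermatids it was again higher, at 22.1, 25.4 and 22.3 CPM in stage 8, and it returned to 1.17, 1.13 and 1.2 CPM in stage 10. The share of all UMIs from X-linked genes ran alongside: it was 2.16, 2.17 and 2.16% in stage 2, 0.0337, 0.0396 and 0.0321% in stage 5, 1.78, 1.77 and 1.73% in stage 8 and 2.0, 1.98 and 1.94% in stage 9. Within stages 1 to 9, the X-linked share was lowest in stage 5 in each library and Taf7l in stages 4, 5 and 5, but the spermatid level of Taf7l stayed far under its stage 2 level, whereas the X-linked share in stages 8 and 9 came near its stage 2 value. Whether the chromosome-wide share sets the Taf7l level was not tested.

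**Figure D2:**
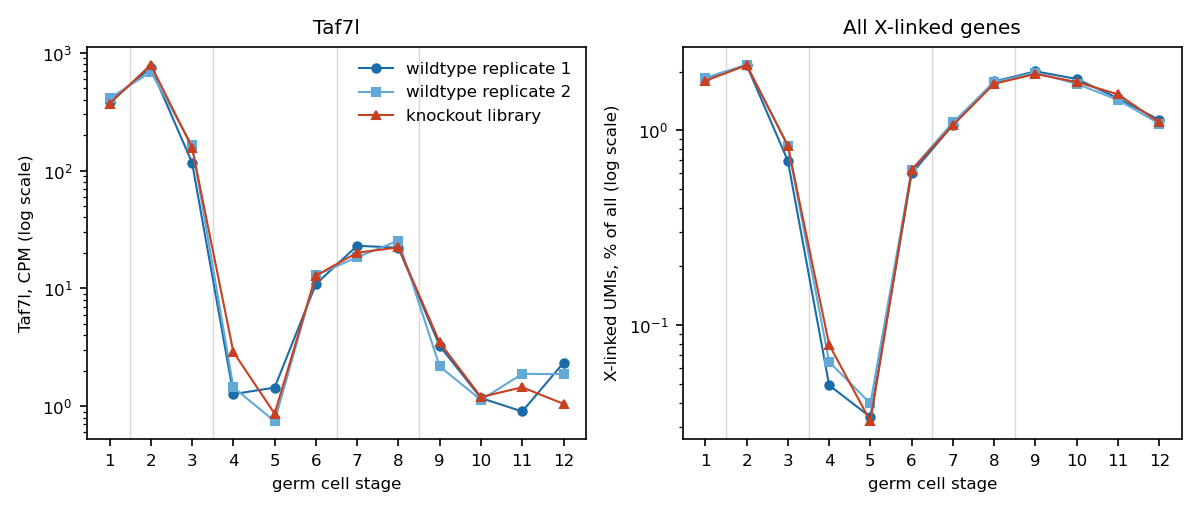
Taf7l in CPM (left, log axis) and the share of all UMIs from X-linked genes in percent (right, log axis) by germ cell stage, 1 line per library. Both are low in stages 4 and 5 and higher in stages 6 to 8, and the lines of the 3 libraries run together.

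Mybl1, the pachytene activator, was the next to come on. It was low in stage 1, at 6.04, 3.71 and 7.98 CPM, and stood at 111, 88.9 and 110.0 CPM in stage 2. Its highest level was in stage 3, at 170.0, 153 and 162 CPM, above stage 4 in each library (119, 125 and 121 CPM). It was 86, 83.7 and 88.7 CPM in stage 5 and 28.1, 26.7 and 22.2 CPM in stage 6, and 1.82, 3.86 and 2.32 CPM in stage 9. On the CPM scale Mybl1 thus peaked before Piwil1, which was 344, 258 and 203 CPM in stage 3 and 1011, 1003 and 836 CPM in stage 4. Counted in UMIs per cell, Mybl1 went on rising, from 2.1, 1.33 and 2.41 in stage 3 to 6.29, 4.49 and 6.88 in stage 4. It reached 6.83, 5.28 and 8.82 UMIs per cell in stage 5.

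Tcfl5 and Rfx2 shared their onset but not their peak. Rfx2 was highest in stage 4, at 99.1, 99.2 and 96.7 CPM, and stood at 86.7, 86 and 85.1 CPM in stage 5. Tcfl5 went on to stage 5, at 530.1, 556 and 571 CPM after 479, 474 and 477 CPM in stage 4, and these ranges did not overlap either. Tcfl5 persisted into spermatids: it still stood at 183, 176 and 192 CPM in stage 9 and 182, 182 and 231 CPM in stage 11. Rfx2 was 31.6, 30.4 and 33.6 CPM and 17, 12.5 and 15.8 CPM there.

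Sox30, an HMG-box factor of spermatids, had 2 peaks. It was 125, 138 and 133 CPM in stage 3, 45.2, 46.3 and 52.1 CPM in stage 5 and 193, 182 and 212 CPM in stage 9, and in each library the value of stage 5 lay under those of both peaks. Stage 8 (169.6, 156 and 193 CPM) overlapped stage 9 over the libraries. Its onset in bin 5 was that of the first peak, while its highest bin was 16, 17 and 17. Both peaks lay above the level in somatic cells, 27.3, 23 and 20.5 CPM.

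The germ-cell forms of the general machinery, Tbpl1 and Gtf2a1l, peaked together in stage 6, the last stage named late-spermatocyte-like. Tbpl1, a relative of the TATA-binding protein, was 530.2, 464 and 435 CPM in stage 4, 1206, 1129.8 and 1003 CPM in stage 5, 1357, 1297 and 1170.0 CPM in stage 6 and 411, 385 and 378 CPM in stage 8. Stages 5 and 6 overlapped over the libraries. By stage 9 it was 88, 78.9 and 81.9 CPM. Gtf2a1l was 106, 106 and 113 CPM in stage 4, 183, 205 and 188 CPM in stage 5 and 184, 221 and 214 CPM in stage 6, again with overlap between the last 2, and 79.1, 89.6 and 85.6 CPM in stage 9. Wildtype replicate 2 was the highest library for Gtf2a1l in stages 5 to 9.

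Crem, the cyclic-AMP-responsive factor, was present from stage 2 and highest in round spermatids. It was 109.5, 115 and 112 CPM in stage 2 and 162, 162 and 157 CPM in stage 4, then 453, 489 and 455 CPM in stage 6 and 576, 611 and 554 CPM in stage 7. Stage 8, at 520.4, 549 and 516 CPM, lay below stage 7 in each library, and stage 10 was 44.2, 54.5 and 52.5 CPM. Its onset depended on the threshold: at 25% of the highest bin the onset was bin 9, 4 and 8.

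Fhl5, the coactivator of CREM, followed Crem by 4 bins. It was 5.58, 6.07 and 5.46 CPM in stage 5, 26.4, 27.6 and 28.1 CPM in stage 6, 200.4, 236 and 248 CPM in stage 7, 704, 685 and 724 CPM in stage 8 and 1093, 989 and 1134 CPM in stage 9. The highest stage was 196-, 163- and 208-fold above the lowest. In stage 9, where Fhl5 was highest, Crem stood at 202, 204 and 193 CPM, below its stage 8 level in all 3 libraries. Sox5 lay between them: it was 4.4, 5.0 and 4.06 CPM in stage 5, 128, 144 and 147 CPM in stage 6, 361, 391 and 408 CPM in stage 7, 467, 474 and 499 CPM in stage 8 and 161, 153 and 182 CPM in stage 9. The libraries of stages 7 and 8 did not overlap for Sox5, nor those of stages 8 and 9 for Fhl5.

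**Figure D3:**
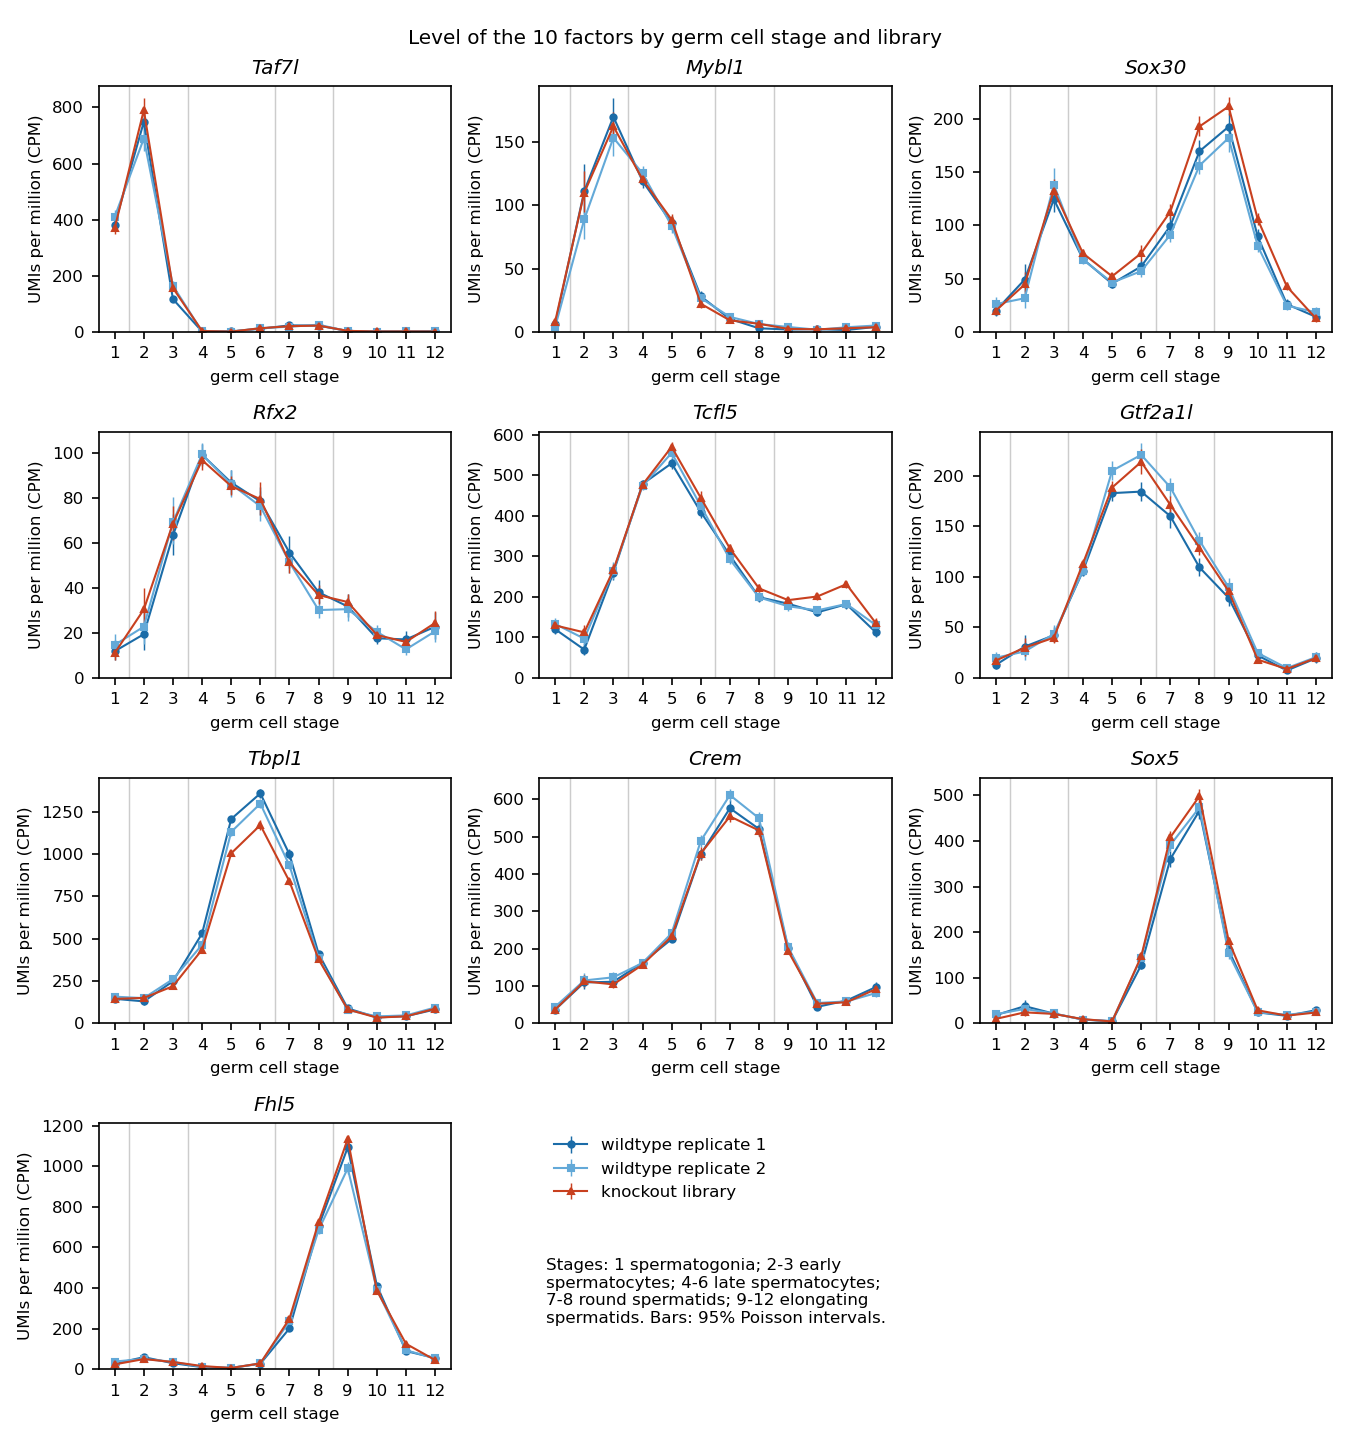
Level of each factor in CPM (y axis, linear from 0) over the 12 germ cell stages (x axis), with 1 line per library and 95% Poisson intervals as bars; grey lines part the 5 classes. The panels run in order of onset, and the highest stage runs from stage 2 (Taf7l) to stage 9 (Fhl5), except that Sox30, between Mybl1 and Rfx2 in onset, is highest in stage 9.

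Counts per cell gave another picture of the same peaks, because spermatocytes of stage 5 held 87363, 67249 and 108786 UMIs at the median and round spermatids of stage 8 32087, 26030 and 43574. Tbpl1 reached 95.7, 71.3 and 99.8 UMIs per cell in stage 5 and 38.7, 27.4 and 41.1 in stage 6, although its CPM was higher in stage 6. Mybl1 reached 2.1, 1.33 and 2.41 UMIs per cell in stage 3 and 6.83, 5.28 and 8.82 in stage 5, although its CPM was higher in stage 3. Tcfl5 reached 42.1, 35.1 and 56.7 UMIs per cell in stage 5. Fhl5 kept its highest stage on both scales, with 30.6, 23.4 and 49.5 UMIs per cell in stage 9, as did Sox5 with 16.3, 12.2 and 23.6 in stage 8. On the scale of UMIs per cell the median onset of Mybl1 moved to bin 6, Rfx2 to bin 8, and Sox30, Tcfl5 and Crem to bin 9, while Taf7l, Gtf2a1l, Tbpl1, Sox5 and Fhl5 kept their bins. Spearman's rho of the onsets was then 0.893 between the wildtype libraries and 0.717 between the knockout library and the wildtype mean, the lowest value over the ways tried to set the onset.

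Somatic cells give the level that free RNA and the cells' own expression leave outside the germ line. In 148, 166 and 242 named Sertoli-, Leydig- and myoid-like cells, with median totals of 5839, 5054 and 8045 UMIs, Tbpl1 stood at 128, 107 and 109 CPM, Crem at 83.9, 55.5 and 57.1 CPM, Fhl5 at 59.4, 41.1 and 40.1 CPM and Sox5 at 53.7, 41.1 and 37.8 CPM. Tcfl5 stood at 47.1, 45 and 49.8 CPM, Gtf2a1l at 24.5, 31.6 and 20.8 CPM, Rfx2 at 20.7, 15.3 and 13.5 CPM, Mybl1 at 17, 5.74 and 16.4 CPM and Taf7l at 13.2, 3.83 and 7.03 CPM. The stage 1 levels of Crem, Fhl5, Sox5, Gtf2a1l, Rfx2, Mybl1 and Sox30 were no higher than the highest somatic library and are not told apart from the somatic level. For Sox30 in wildtype replicate 2, stage 1 (26 CPM) was above the somatic value of the same library (23 CPM). Taf7l and Tcfl5 in stage 1 (119.7, 133 and 129 CPM for Tcfl5) were above the somatic level in each library, and Tbpl1 (145, 157 and 144 CPM) only narrowly. Prm1, a protamine transcript of elongating spermatids, stood at 2158, 2401 and 2143 CPM in spermatogonia. The barcodes of low UMI totals also held these transcripts, with Tbpl1 at 614, 682 and 682 CPM. Mybl1 stood there at 19.9, 27.5 and 37.3 CPM, the only member with a knockout interval apart from both wildtype intervals in these barcodes. How many other genes were apart there was not counted.

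Creb1 and Gtf2a1 were low where their germ-cell relatives were high. Creb1, the relative of Crem that is expressed in most tissues, was highest in stage 1 at 56.6, 54.4 and 46.6 CPM and stood at 3.32, 5.36 and 4.59 CPM in stage 7, where Crem peaked. Gtf2a1 was highest in stage 3 at 96.1, 103 and 85.7 CPM and stood at 16.3, 16.5 and 14.2 CPM in stage 6, where Gtf2a1l peaked. Taf7, like Taf7l, was higher in stage 1 (233, 253 and 286 CPM) than in stage 8 (7.2, 8.44 and 9.44 CPM), but it still stood at 91.2, 104 and 100.2 CPM in stage 4, where Taf7l was 1.27, 1.45 and 2.88 CPM. Tbp, by contrast, was high where Tbpl1 was: it was 28.7, 32.7 and 31.1 CPM in stage 1, 74.8, 70.3 and 64 CPM in stage 3 and 78.1, 93.7 and 64.4 CPM in stage 6, and 3.04, 1.21 and 1.51 CPM in stage 9.

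Among the DNA-binding families, Rfx1 was low in stage 5, next to the stage 4 peak of Rfx2, and higher in stage 7. Rfx2 still reached 50% of its highest bin in bin 13, which was mainly stage 7, so the 2 overlapped there. Rfx1 was 0.761, 1.49 and 1.14 CPM in stage 5 and 50.5, 46.7 and 46.8 CPM in stage 7. Rfx3 was 1.78, 1.6 and 1.57 and 21.3, 20.3 and 18.9 CPM in the same stages. Sox6, the partner of Sox5 in other tissues, was highest in stage 8 like Sox5, at 56.7, 58.2 and 58.6 CPM, but had an earlier shoulder of 32.8, 33.7 and 30.5 CPM in stage 4 where Sox5 was 8.27, 8.4 and 9.16 CPM. Mybl2 (B-MYB), of cycling cells, was highest in stage 1 at 25.3, 30.4 and 39.4 CPM, before Mybl1. Fhl1 stood at 9.06, 9.12 and 10.4 CPM in stage 1 and 0, 0 and 0.445 CPM in stage 9, the stage of highest Fhl5.

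**Figure D4:**
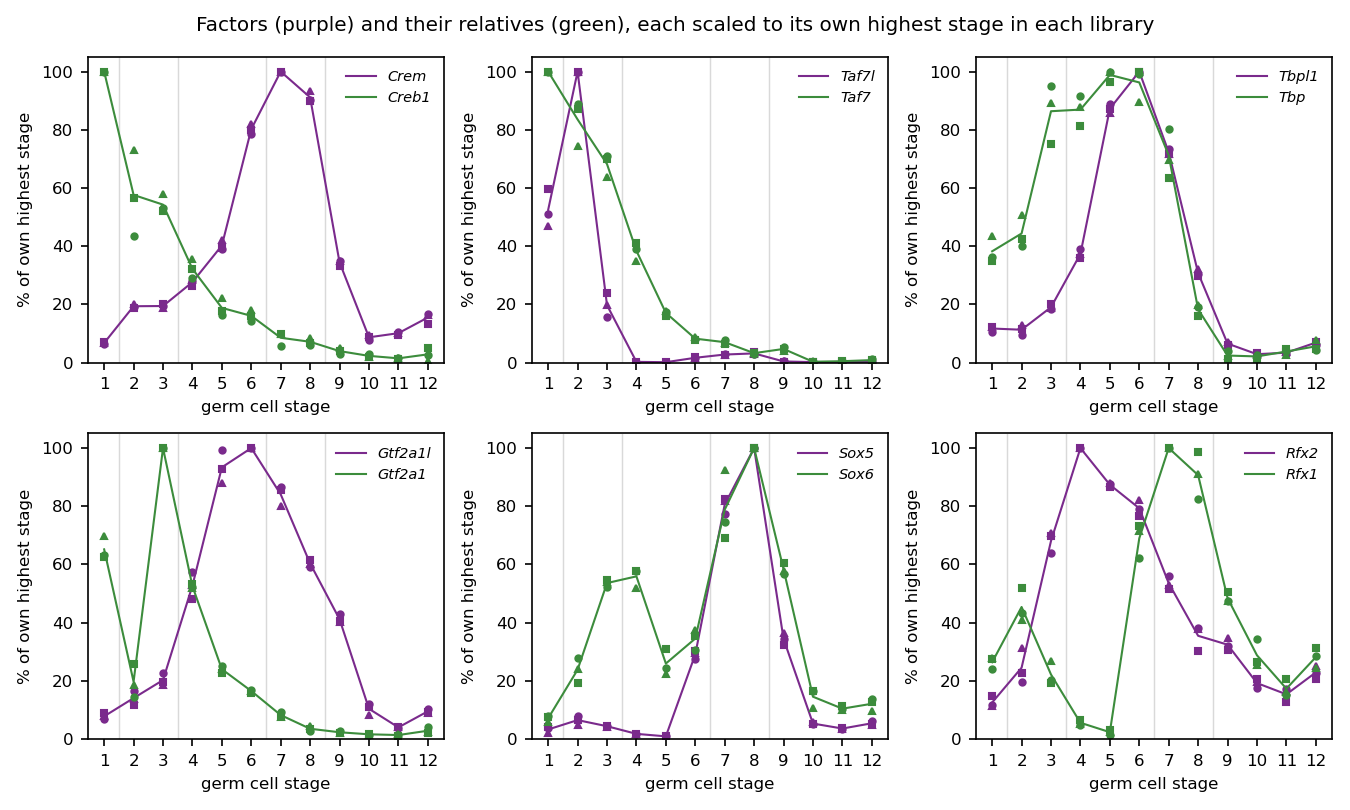
Level of 6 factors (purple) and 1 relative of each (green) in percent of the gene's own highest stage (y axis) over the 12 stages (x axis); symbols are libraries and lines their mean. Creb1, Taf7 and Gtf2a1 are highest in stages 1 to 3 and low where Crem and Gtf2a1l are high, Tbp and Tbpl1 are high together, and Rfx1 is lowest in stage 5.

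For each member, the genes most alike in course were ranked by Pearson's r of log2(CPM + 1) over 90 points, 30 bins in each of the 3 libraries, among 11027 genes that reached 20 CPM. The points share the order and the libraries, so r is a description. Mybl1 was most like Tesmin (r = 0.958) and Sycp2 (0.947), a part of the synaptonemal complex. Taf7l was most like Usp26 (0.966) and Ofd1 (0.963), and Tcfl5 most like Pbx4 (0.917) and Mroh8 (0.889). Rfx2 was most like Ndufaf3 (0.937) and the radial spoke gene Rsph1 (0.924). Crem was most like Cfap45 (0.958) and Dynlrb2 (0.955), genes of ciliary and dynein proteins. Gtf2a1l was most like Lypd4 (0.968) and Fbp1 (0.962), and Tbpl1 most like Amn1 (0.983) and Vdac2 (0.98). Sox5 was most like Plac8l1 (0.983) and Spaca3 (0.98), an acrosomal gene, and Fhl5 most like Cypt12 (0.976) and Samd4 (0.976). Sox30, with its 2 peaks, had the lowest values, for Ppp1r2 (0.869) and Pex3 (0.862). Between members, the highest r was that of Crem and Gtf2a1l (0.873), followed by Tbpl1 and Gtf2a1l (0.862).

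In the knockout library no member changed by the size used as a call. The size rule called a gene that reached 20 CPM in 1 library and whose log2 ratios of CPM + 1 to both wildtype libraries had the same sign, a size of 1 or more, and 2 or more times the size of the wildtype difference. In spermatogonia 0 of 6 members with 20 CPM were called, with 0.352% of all genes tested called. In early spermatocytes 0 of 10 were called (0.228% of all genes), in late spermatocytes 0 of 8 (0.735%), in round spermatids 0 of 9 (1.18%) and in elongating spermatids 0 of 8 (1.13%). The median log2 ratio of the members was -0.12, 0.00, 0.01, 0.03 and 0.20 in the 5 classes, beside -0.01, 0.03, 0.01, 0.01 and 0.10 over all genes tested. Within the 12 stages 0 of 95 member values that reached 20 CPM were called as well, with 0.845% of all gene values of the stages called. With so few genes called in all, these counts of 0 are near the background.

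At a lower size of 1.5-fold against both wildtype libraries, with no term for the wildtype difference, Sox30 in stage 11 was the 1 case among these 95 member values, with 2.53% of all gene values past that size. It stood at 26, 24.6 and 42.6 CPM, a log2 ratio of 0.73 to the wildtype mean. The knockout value lay above both wildtype values, with an interval of 38.9 to 46.5 CPM beside 21.9 to 30.6 and 20.9 to 28.8 CPM. Sox30 was the highest in the knockout library in stages 4 to 11, with intervals above both wildtype intervals in stages 8, 10 and 11, where 12.6% of all gene values lay above in the same way.

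Among the values by stage, the 4 member values whose knockout interval lay below both wildtype intervals were all of Tbpl1, in stages 4 to 7. Its log2 ratio to the wildtype mean was -0.19 in stage 4, -0.22 in stage 5, -0.18 in stage 6 and -0.20 in stage 7, beside wildtype differences of -0.19, -0.09, -0.07 and -0.10. In stage 5 the knockout interval was 989 to 1018 CPM, beside 1186 to 1226 and 1108 to 1152 CPM. Over the same 4 stages, 7.93% of all gene values lay below both wildtype intervals. Crem in stage 7 (576, 611 and 554 CPM) and Rfx2 in stage 4 (99.1, 99.2 and 96.7 CPM) were also lowest in the knockout library at their peaks, with overlapping intervals. For Tbpl1 in stage 4 the difference was about as large as that between the wildtype libraries. Tbp, which was high in the same stages, was 78.8, 90.4 and 71.8 CPM in stage 5 and 78.1, 93.7 and 64.4 CPM in stage 6, with the knockout library again the lowest.

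The remaining cases were higher in the knockout library and lay in stages 9 to 11. Tcfl5 stood at 161, 166 and 201 CPM in stage 10 and 182, 182 and 231 CPM in stage 11, Fhl5 at 89, 92.9 and 125 CPM in stage 11, and Sox5 at 161, 153 and 182 CPM in stage 9. Over the 95 member values 11 knockout intervals were apart from both wildtype intervals, 7 above and 4 below. Over all gene values of the stages, 13.2% were apart, 7.11% above and 6.06% below, so these counts are near the background. Counting intervals leave out the differences between mice, and depth moved with the group: cells of stage 11 held 12846, 9944 and 18226 UMIs at the median. Its part in these differences was not tested.

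**Figure D5:**
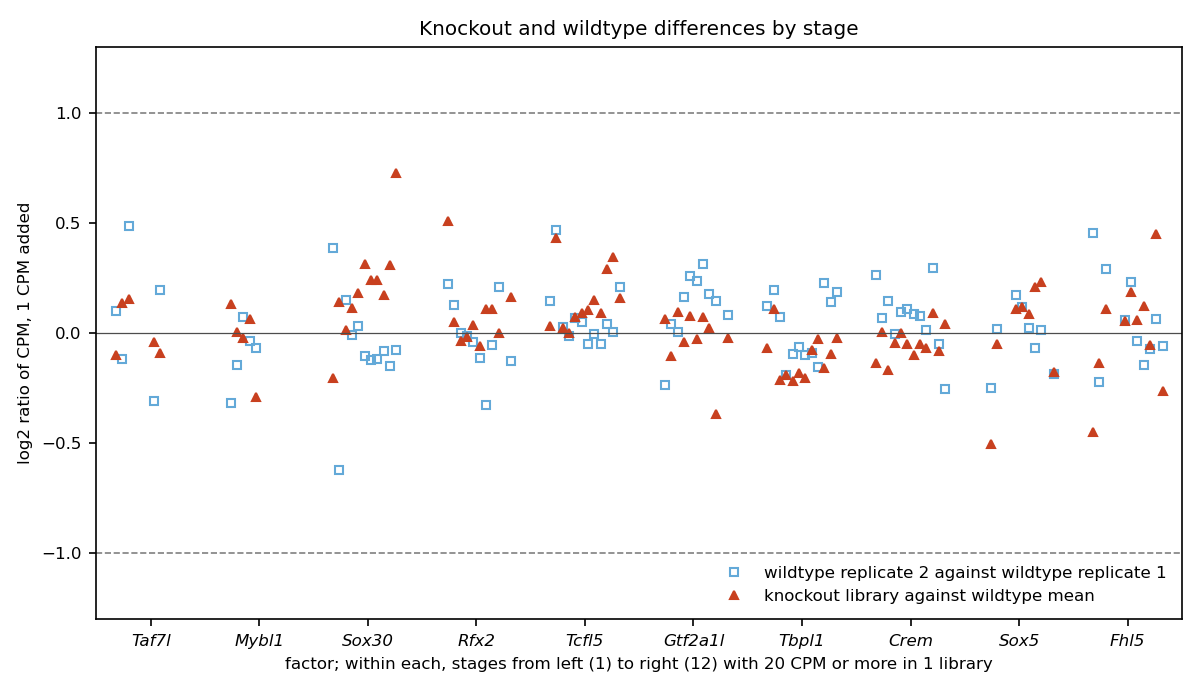
Log2 ratio of CPM, 1 CPM added (y axis), of the knockout library to the wildtype mean (red triangles) and of wildtype replicate 2 to wildtype replicate 1 (blue squares) for each factor (x axis), with stages from left to right; dashed lines mark a log2 ratio of 1. Only stages in which 1 library reached 20 CPM are drawn; no point passes the lines, and the highest triangle is Sox30 in stage 11.

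By class, the sums also carry the makeup of the class. Over 41 member values by class, 4 knockout intervals lay below both wildtype intervals and 8 above. Those below were Crem, Tbpl1 and Sox5 in late spermatocytes (18.2% of all genes tested below) and Tbpl1 in round spermatids (11.4%). Those above lay in late spermatocytes, round spermatids and elongating spermatids, where 18.4%, 11.5% and 30.9% of all genes tested lay above. Sox5 in late spermatocytes was 32.6, 37.2 and 25 CPM, a log2 ratio of -0.46. Its values within stages 4 to 6 were 8.27, 8.4 and 9.16, 4.4, 5.0 and 4.06 and 128, 144 and 147 CPM, and the ratio was 0.10 when each stage was weighted equally, so its direction turned. Stage 6, which held most of the Sox5 of this class, made up 271 of 734, 319 of 874 and 164 of 696 late spermatocytes. Crem in late spermatocytes, at 245, 258 and 228 CPM, also changed with the makeup. It was 280, 297 and 282 CPM with equal weight of stages and 189, 193 and 194 CPM with stage 6 counted among the round spermatids. Within stages 4, 5 and 6 the intervals of Crem overlapped. With barcodes of at least 2000 UMIs and at most 5% mitochondrial UMIs, 1 of 40 member values of the 5 classes was called, with 0.906% of all gene values called. It was Taf7l in early spermatocytes (1.01% of all genes called there), at 44.5, 31 and 104.5 CPM, beside 287, 336 and 313 CPM with the usual filter. The clusters of early spermatocytes differed between the 2 filters. Under the stricter filter the class took in a cluster with Piwil1 among its leading genes, of 169, 212 and 146 cells. A cluster led by Stra8, with Taf7l among its leading genes, held 52, 43 and 117 cells, and the remaining cluster 113, 101 and 216. The makeup of the class thus differed between libraries, and its part in the Taf7l ratio was not tested.

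The other genes of these pathways were likewise not called in any of the 5 classes. In spermatogonia, early and late spermatocytes, round and elongating spermatids, 6, 8, 8, 2 and 1 of 8 piRNA pathway genes linked to A-MYB reached 20 CPM, and 0 passed the size rule in either direction. The same held for 8, 7, 7, 8 and 8 of 8 spermatid genes linked to CREM and for 7, 9, 9, 9 and 5 of 9 cilium and flagellum genes. It held too for 8, 8, 7, 7 and 2 of 19 relatives of the factors and for 6, 10, 8, 9 and 6 of 13 other stage regulators, of which Meiosin was not matched. By class, the largest ratio of the first list was that of Piwil1 in early spermatocytes, with a log2 ratio of -0.46 (256, 179 and 158 CPM). In the second list it was the protamine gene Prm1 in round spermatids, with -0.50 (2617, 2652 and 1858 CPM). These values are near the Prm1 level in spermatogonia given above. Within stage 4 the 6 tested genes of the second list had a median log2 ratio of 0.81, beside 0.00 over all genes, with Prm2 the largest at 0.97 (550.1, 842 and 1361 CPM). All 6, Tnp2 among them (266, 464 and 669 CPM), were highest in the knockout library, and the wildtype libraries differed as well. Prm2 was 345, 437 and 391 CPM in stage 5, its lowest stage, and 169100, 166700 and 167300 CPM in stage 12, its highest. The part of free RNA in the low levels of these spermatid genes was not tested. In stage 5 the median of the list was -0.12. In the third list it was, by class, Ift140 in spermatogonia, with 0.50, and among the relatives Mybl2 in spermatogonia, with 0.49. Among the landmarks by class it was Acrv1 in late spermatocytes, with -0.71, although within stage 6 Acrv1 was 241, 296 and 264 CPM and did not differ beyond the wildtype libraries.

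The stage regulator that moved farthest was Kif17, which encodes a kinesin motor known to bind FHL5 in spermatids. It was 40.1, 39.7 and 73.6 CPM in round spermatids, a log2 ratio of 0.86, and 31.3, 33.2 and 61.7 CPM in elongating spermatids, a ratio of 0.92. The knockout library was the highest of the 3 in stages 6 to 12, and in stage 10, at 23.1, 24.1 and 49.8 CPM, Kif17 passed the size rule. Of all genes tested in stage 10, 1.32% were called, 0.787% as higher in the knockout library. Fhl5 in the same stage was 412, 392 and 387 CPM, with the knockout library the lowest, and Crem was 44.2, 54.5 and 52.5 CPM. The genomic position of Kif17 was not compared with that of Tex10, and no tie of its level to FHL5 was tested.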

How the data were processed

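Dissociated adult testis cells were measured with 10x Genomics 3′ libraries: 2 wildtype mice and 1 pool of 2 conditional knockout mice. The deposited tables hold UMI counts per gene and barcode, whole numbers that are not normalized. Cell Ranger 4.0.0, Seurat 4.0.5 and the build mm10 are named in the submitters' processing notes. Barcodes with at least 1000 UMIs, 500 genes and at most 10% mitochondrial UMIs were kept (8134, 8337 and 12014). Scrublet's own threshold called 0, 1 and 0 doublets, under 0.5%, so the highest 8% of doublet scores per library were left out. Clusters were made on variable genes without the members and list genes, with scanpy 1.11.5 and leidenalg 0.10.2 and the 29 clusters were named from fixed marker lists of 12 cell types. Clusters whose median UMI total was under 3 times the lowest of a library were left unnamed, so members in those cells are not described by class or stage. Values were computed with numpy 2.4.6, scipy 1.17.1 and pandas 2.3.3 under Python 3.11.15.

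The planned diffusion pseudotime placed elongating spermatids (median 0.45) beside early spermatocytes (0.41). It was replaced, after this was seen, by a projection on the chain of cluster medians in 5 diffusion components, over 1986 features without the members and list genes. The chain was sorted by the known order of the classes, then by the first diffusion component within a class. UMIs were summed per library and class, stage or bin and scaled to 1000000. Exact Poisson and binomial intervals (95%) cover counting error only, and differences between mice come on top of them. With 1 knockout library there is no test. The script for the size rule was tested on simulated data. Genes named beside the 10 members were the landmarks, the 2 most alike genes of each member, set counterparts among the relatives, and from each further list the genes past the size rule and the 1 with the largest ratio. The members, lists and rules were chosen with earlier results of these data known. Promoter sequences come from RefSeq (GRCm38.p6) and positions from GENCODE M21 (GRCm38).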

Additional observations from a re-analysis of the deposited data

How the results depend on the processing

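The order of onset kept a Spearman's rho of 0.979 or more in both comparisons under other bin numbers, features, neighbours, cell filters and an order set in each library alone. The exceptions were an onset at 25% of the highest bin (0.88 between the wildtype libraries) and UMIs per cell (0.893 and 0.717 for the knockout library), and the cause was not tested. These values compare libraries under 1 setting: the bins of 8 of 10 members moved under the stricter cell filter, 5 with UMIs per cell, 3 at 25% and 1 with 40 bins. Without 1 wildtype library, rho for the knockout library was 0.997 to 1.0. The number of members past the size rule was 0 under every alternative but the stricter cell filter, where it was 1, Taf7l; early spermatocytes then had 66 genes called in place of 16, and the cause was not tested. At 1.5-fold, with the term for the wildtype difference kept, 89, 49, 126, 159 and 109 genes were called in the 5 classes in place of 26, 16, 44, 65 and 40, and without the minimum of 20 CPM 235, 107, 133, 168 and 136. Both alternatives loosen the rule. Without 1 wildtype library the calls were 44 to 56, 22 to 29, 45 to 55, 74 to 77 and 45 to 53, with 0 members among them in each case; without wildtype replicate 1 spermatogonia had 56 and early spermatocytes 29. Of 41 member ratios by class, 19 moved by more than the wildtype spread under the stricter cell filter and 15 under equal weight of stages, an alternative chosen after seeing the data. With stage 6 counted among the round spermatids, 13 of the 41 ratios moved by more than that spread. Mybl1 in spermatids and Taf7l in stages 4 and 5 rest on few UMIs at their low levels, so their ratios there are imprecise. No paired analysis was possible, because the labels give no pairs of libraries and the 2 knockout mice were pooled into 1 library.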
